A study of Mus musculus with 12 samples.

Results

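The platelet-derived growth factor (PDGF) ligand and receptor genes were followed in mouse 3T3 cells, a long-established line of fibroblasts, across all 12 arrays of the series. The 6 genes are Pdgfa, Pdgfb, Pdgfc and Pdgfd, which encode the ligands, and Pdgfra and Pdgfrb, which encode the receptors. They were taken by symbol from the probe annotation, which gave 10 of 38784 probes and 6 of 16969 genes with a symbol of their own. The 4 groups, of 3 arrays each, were control cells and cells given Shld1 at a dose of 10 nM, of 100 nM or of 1 µM. Shld1 is a synthetic ligand that shields proteins fused to a destabilizing domain made from FKBP12. The labels name neither a fusion protein in the cells nor the duration of treatment. On each array the RNA of the cells carried Cy5 and a commercial mouse reference RNA (Stratagene), common to all arrays, carried Cy3, and no array had the dyes swapped. All groups therefore share the same reference, and a dye effect and a difference between cells and reference cannot be told apart.

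PDGFs are dimers that bind and pair receptor tyrosine kinases on mesenchymal cells, which then recruit adaptors, lipid kinases and phosphatases to their phosphorylated tails. PDGF-A and PDGF-B are cut to their active form inside the cell, whereas PDGF-C and PDGF-D carry a CUB domain that is removed by proteases outside it. PDGF receptor alpha binds the A, B and C chains, and PDGF receptor beta binds mainly the B and D chains. Fibroblasts, pericytes and smooth muscle cells carry these receptors, and serum PDGF is a classical mitogen of 3T3 cells.

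Every value below is a log2 ratio of 3T3 cells over the reference RNA from the deposited table, with each array centred on its median, so that 0 is the middle of the probes of that array. The log base was assumed to be 2, and the direction was taken from the dyes. A ratio is no measure of abundance, so the probes of different genes are compared only by their ratio to the reference. An array gave values for 30649 to 33615 probes, and the test took the 30357 probes with values on 2 or more of the 3 arrays in each group. Among all genes, 38.2% were called above the reference (called means an adjusted p under 0.05 in limma) and 34.5% below. Of the markers used to check the label, 8 of 10 fibroblast genes were called above the reference and none below. Of 7 leukocyte markers none was called above the reference and 5 were called below it, with Ptprc at -2.42. Of 9 pericyte and smooth muscle markers 4 were called above and 4 below, and of 6 epithelial markers 2 above and 3 below. Of 6 endothelial markers 1 was called above and 1 below, and of 4 adipocyte markers 2 above and 1 below. All these sets, the fibroblast and leukocyte sets included, are too small to set beside those shares. The labels do not say whether the 3 arrays of a group came from separate cultures, so the spread behind each p-value may be technical.

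The promoters of Pdgfc and Pdgfd are shown because these genes encode the CUB-domain ligands and lay on opposite sides of the reference RNA. Both windows are from RefSeq on GRCm38.p6, from 250 bases before the annotated start to 50 after it, on the plus strand, at chr3:81036166-81036465 for Pdgfc and chr9:6168236-6168535 for Pdgfd. Capitals mark matches, on either strand, to TATAAA, to GGGCGG or to the CArG box that serum response factor binds, motifs chosen after the sequences were seen.
Pdgfc: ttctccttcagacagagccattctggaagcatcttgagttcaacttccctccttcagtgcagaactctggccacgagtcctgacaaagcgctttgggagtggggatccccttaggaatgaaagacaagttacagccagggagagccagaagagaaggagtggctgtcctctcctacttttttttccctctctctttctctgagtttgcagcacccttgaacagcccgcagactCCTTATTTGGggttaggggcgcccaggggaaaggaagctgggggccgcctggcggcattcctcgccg
Pdgfd: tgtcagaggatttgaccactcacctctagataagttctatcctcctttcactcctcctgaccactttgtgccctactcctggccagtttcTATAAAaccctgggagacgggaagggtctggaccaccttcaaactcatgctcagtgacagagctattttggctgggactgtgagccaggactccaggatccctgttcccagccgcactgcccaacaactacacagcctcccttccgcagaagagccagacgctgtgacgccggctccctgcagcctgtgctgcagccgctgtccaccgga
The Pdgfc window held a single CArG box, at -17 from the start, a motif found in 1.63% of 32851 promoter windows of the same length. The Pdgfd window held TATAAA at -160, which 13.6% of windows held, and neither window held GGGCGG, which 35.7% held. GC content was 55.0% for Pdgfc and 56.7% for Pdgfd, against a median of 52.7% over all windows. The matches describe the letters of these windows and no binding was measured. For the other members 2 windows of Pdgfa and 1 of Pdgfra were read, and none of Pdgfb or Pdgfrb was used.

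Of the 6 genes, 2 were above the reference RNA in 3T3 cells and 4 were below it. Over the mean of the 4 groups, the receptor gene Pdgfrb stood 2.74-fold above the reference and the ligand gene Pdgfc was the other gene above it. Pdgfa, Pdgfb, Pdgfd and the receptor gene Pdgfra were all below. All 9 tested probes passed the test in limma with Benjamini-Hochberg adjustment, 3 higher and 6 lower, with adjusted p between 6.29e-09 and 0.00291. That comparison called 35.6% of all probes higher and 35.6% lower, and among 14524 genes 38.2% higher and 34.5% lower, so passing it sets no gene apart. At the level of genes, 2 members were called higher and 4 lower.

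**Figure D1:**
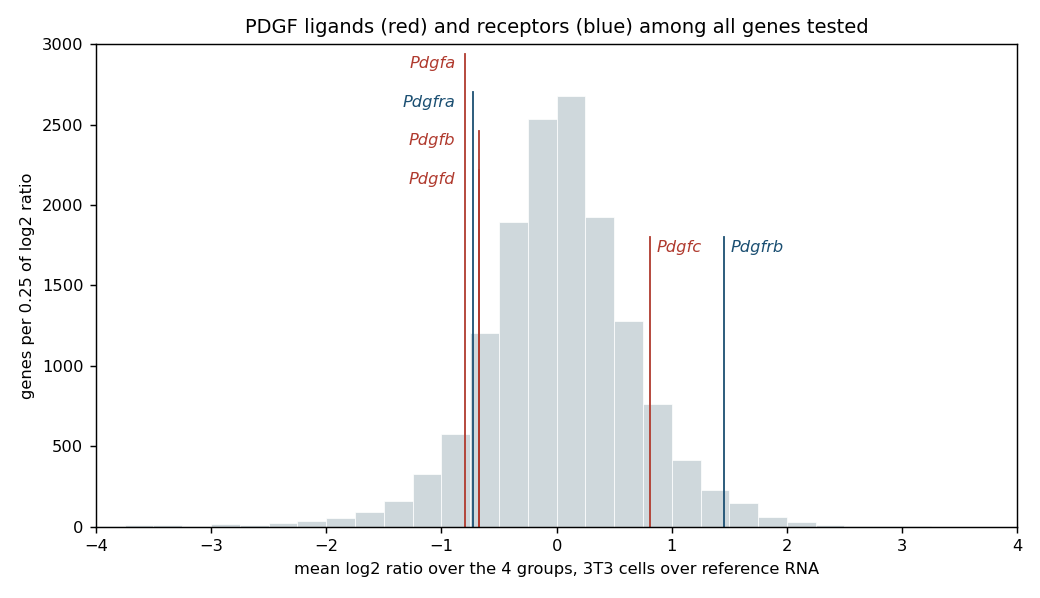
Number of genes (vertical axis, bars) by their mean log2 ratio of 3T3 cells over reference RNA across the 4 groups (horizontal axis, bins of 0.25). Lines mark the ligand genes (red) and receptor genes (blue): Pdgfrb at 1.45 and Pdgfc at 0.81 lie in the right flank, and the other 4 genes lie between -0.80 and -0.67.

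The position among all genes gives these ratios a scale. The value of Pdgfa is the mean of probes at -1.13 and -0.46, and that of Pdgfb of probes at -0.58 and -0.77. That of Pdgfc is the mean of probes at 1.08 and 0.54. The SE covers the spread between arrays and not the difference between probes. Only 2.06% of genes had a higher mean ratio than Pdgfrb, at 1.45 (SE 0.07), and 9.83% a higher one than Pdgfc, at 0.81 (SE 0.08). At the other end 8.3% of genes were lower than Pdgfa, at -0.80 (SE 0.07), and 9.81% were lower than Pdgfra, at -0.72 (SE 0.09). Pdgfb at -0.67 (SE 0.09) and Pdgfd at -0.67 (SE 0.12) were close to each other, with 11.1% and 11.2% of genes below them. The 2 receptor genes thus lay on opposite sides of the reference, and so did Pdgfc and the other 3 ligand genes. In the control arrays alone, 3 of 9 member probes were called higher and 5 lower, where that comparison called 23.4% of all probes higher and 19.9% lower. The exception was Pdgfd, at -0.70 (SE 0.28) in control cells with an adjusted p of 0.0661 in limma, on the 2 control arrays that measured it. Leaving out a single control array ended the call of Pdgfc probe 8767 (without replicate 1 or 3), Pdgfra (2 or 3), Pdgfb probe 32370 (1) and Pdgfa probe 35802 (1 or 2), while the direction held.

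Pdgfa, whose product homodimerises to a ligand of receptor alpha, was measured by 2 probes, both below the reference on 12 of 12 arrays. Probe 20156 read -0.84, -1.93 and -1.05 in control, -1.26, -1.06 and -1.11 at 10 nM, -1.51, -0.82 and -0.98 at 100 nM, and -1.70, -0.62 and -0.73 at 1 µM. The group ranges overlapped, and the lowest values were control replicate 2 and 1 µM replicate 1. Probe 35802 was nearer to the reference, at -0.46 ± 0.25 over all arrays (SD, n = 12) against -1.13 ± 0.40 for probe 20156 (SD, n = 12). Its arrays ran between -0.97 and -0.09, with group means of -0.49 in control, -0.56 at 10 nM, -0.43 at 100 nM and -0.36 at 1 µM. The probes gave the same direction against the reference but differed 2.19-fold against 1.38-fold in its size.

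Pdgfb, which encodes the chain that binds both receptors, was also below the reference on 12 of 12 arrays with each of its 2 probes. Probe 32370 read -1.91, -0.42 and -0.33 in control, -0.01, -1.20 and -0.72 at 10 nM, -0.58, -0.51 and -0.61 at 100 nM, and -0.13, -0.16 and -0.35 at 1 µM. Control replicate 1 was far below the other control arrays, and with it the control range took in all the 100 nM arrays. Without it the 100 nM arrays lay below the other control arrays, and the 10 nM and 1 µM ranges still overlapped them. Probe 38198 was steadier, with a mean of -0.77 ± 0.26 (SD, n = 12). It read -1.15, -0.98 and -0.39 in control, -0.52, -0.58 and -0.43 at 10 nM, -0.81, -0.69 and -1.09 at 100 nM, and -0.72, -0.83 and -1.08 at 1 µM. Its 10 nM arrays lay close together inside the control range.

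Pdgfc, the CUB-domain ligand that activates receptor alpha, was the ligand gene above the reference. Probe 1657 read 1.48, 0.89 and 0.89 in control, 0.98, 1.35 and 0.78 at 10 nM, 1.13, 1.30 and 1.31 at 100 nM, and 1.08, 1.00 and 0.78 at 1 µM. It was above the reference on 12 of 12 arrays. Each dose overlapped control, and the 1 µM arrays were all below the 100 nM arrays, a pair of groups that was not tested against each other. Probe 8767 was above it on 11 of 12 arrays, or on 10 without centring, and averaged 0.54 ± 0.49 (SD, n = 12). Its readings were 1.23, 0.57 and 0.73 in control, 0.68, 0.52 and 0.45 at 10 nM, 0.78, -0.71 and 1.07 at 100 nM, and 0.07, 0.63 and 0.50 at 1 µM. The array below the reference was 100 nM replicate 2, on which probe 1657 read 1.30.

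Pdgfd, the CUB-domain ligand of receptor beta, had 1 probe that could be tested. Probe 13303 read -0.65 and -0.74 on the control arrays of replicates 1 and 3, with no value on replicate 2, then -1.07, -0.03 and -0.23 at 10 nM, -1.15, -0.29 and -0.49 at 100 nM, and -0.41, -1.28 and -1.001 at 1 µM. All 11 readings were below the reference and each dose spanned the control values. Its second probe, 22590, had a value on control replicate 3 alone, 0.70, and was not tested. That value was above the reference, where probe 13303 read -0.74 on the same array. The side of Pdgfd therefore rests on probe 13303.

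Pdgfra, the receptor gene often used to mark fibroblast progenitors, was below the reference on 11 of 12 arrays. Probe 29326 read 0.02, -0.88 and -0.66 in control, -0.95, -1.01 and -0.61 at 10 nM, -0.86, -0.43 and -0.72 at 100 nM, and -0.996, -0.465 and -1.116 at 1 µM. The exception was control replicate 1, at the level of the reference, and without centring it was below as well. The mean over all arrays was -0.72 ± 0.32 (SD, n = 12).

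Pdgfrb, the receptor gene that also marks pericytes, was above the reference on 12 of 12 arrays. Probe 18931 read 1.59, 1.68 and 1.41 in control, 1.29, 1.67 and 1.42 at 10 nM, 1.36, 1.63 and 1.88 at 100 nM, and 0.83, 1.39 and 1.29 at 1 µM. The group means were 1.56 ± 0.14 in control, 1.46 ± 0.19 at 10 nM, 1.62 ± 0.26 at 100 nM and 1.17 ± 0.30 at 1 µM (SD, n = 3 each). The 1 µM group had the lowest mean, its arrays were all below the control arrays, and they overlapped those of 10 nM and 100 nM. Such a separation of 1 µM from control, in either direction, was seen for 7.37% of all probes measured on the 6 arrays.

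**Figure D2:**
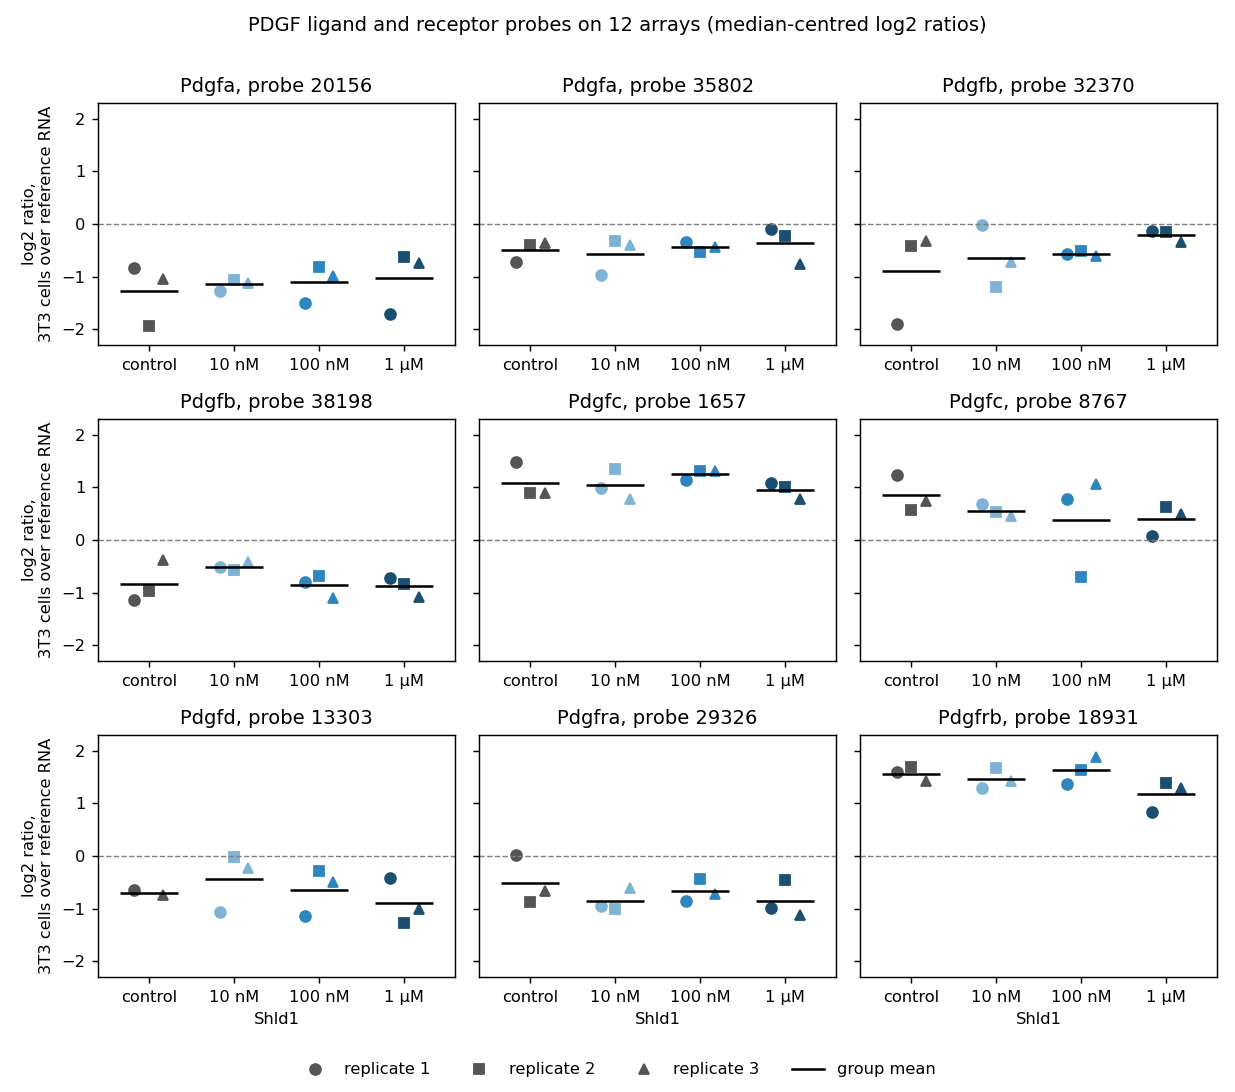
Log2 ratio of 3T3 cells over reference RNA (vertical axis) for the 9 tested PDGF probes in control cells and at 10 nM, 100 nM and 1 µM Shld1 (horizontal axis). Each point is 1 array, its shape gives the replicate number and the bar is the group mean. The group means of Pdgfrb and Pdgfc lie above 0 and those of the other genes below it. Of these probes 1 µM and control separate without overlap for Pdgfrb alone, as they did for 7.37% of all probes measured on the 6 arrays.

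The comparison of each Shld1 dose with control asked what Shld1 did to these genes in 3T3 cells. No member passed it. At 1 µM 0 of 9 member probes were called, each with an adjusted p of 0.999 in limma, where the comparison called 0.00329% of all probes, a single probe of 30357. That probe, 27598, has no gene symbol in the annotation and is named here after its values were seen: it averaged -2.27 at 1 µM and 1.43 in control, with an adjusted p of 0.00837 in limma. None of the members reached an unadjusted p under 0.05 at any dose. Among all probes 1284 (4.23%) did at 1 µM, 980 (3.23%) at 100 nM and 812 (2.67%) at 10 nM. Beside such shares, 0 of 9 does not set the members apart. At 100 nM and at 10 nM 0 of 9 were called with 0% of all probes called, at an adjusted p of 1.00 for each member. The mean of the 3 doses against control likewise gave 0 of 9 with 0% of all probes, and the F test over the doses 0 of 9 with 0.00329%. The F test was passed by the same probe 27598.

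**Figure D3:**
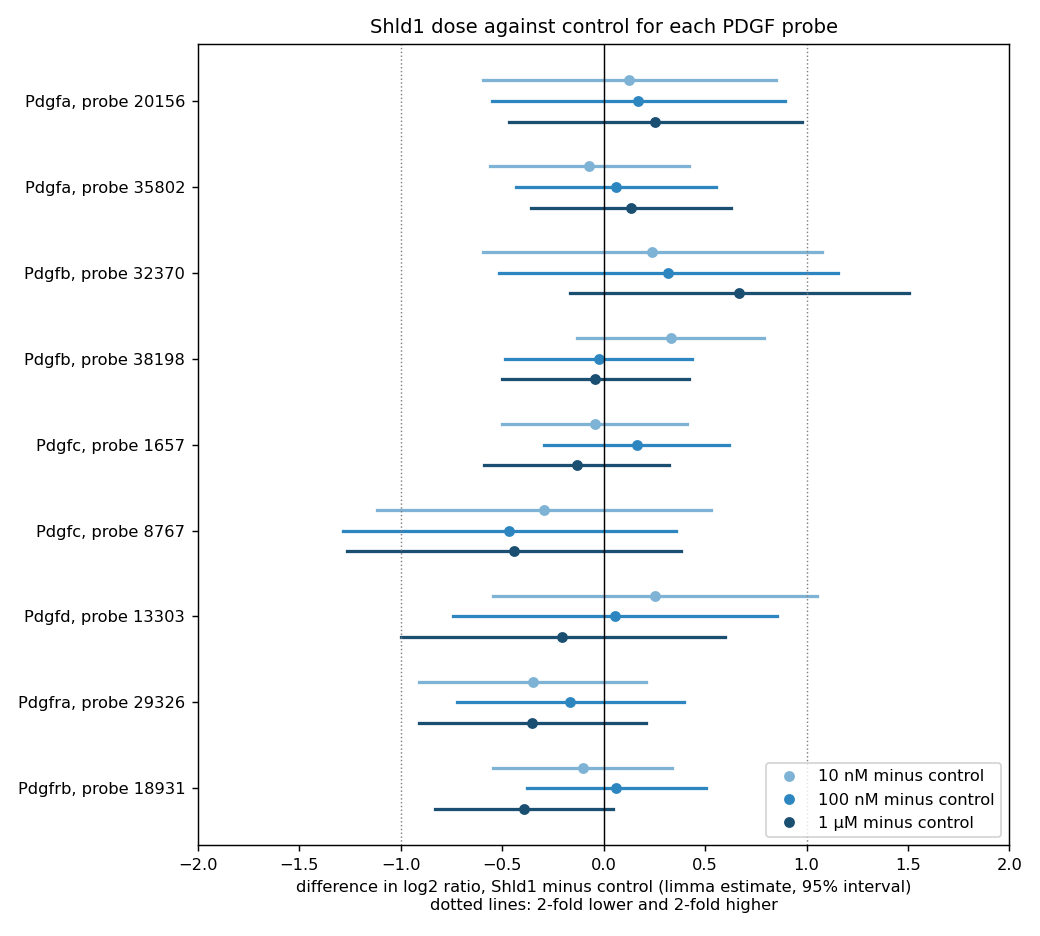
Difference in log2 ratio between each Shld1 dose and control (horizontal axis) for the 9 PDGF probes (vertical axis). Points are limma estimates and bars their 95% intervals, from light to dark for 10 nM, 100 nM and 1 µM: every interval includes 0, and Pdgfrb at 1 µM, from -0.83 to 0.05, comes nearest to leaving it out.

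Among the members, Pdgfrb had the smallest unadjusted p at 1 µM. It differed by -0.39 from control (SE 0.20, 95% interval -0.83 to 0.05), with an unadjusted p of 0.0759 and an adjusted p of 0.999 in limma. Within each replicate number the 1 µM array was the lower one, by -0.76 in replicate 1, -0.29 in replicate 2 and -0.13 in replicate 3. Pdgfrb was the 1 probe of 8 measured on all 6 arrays whose 1 µM and control groups did not overlap, and 7.37% of all probes had such groups. With single arrays left out the difference ran from -0.50, without 1 µM replicate 2, to -0.22, without 1 µM replicate 1. At 100 nM it was 0.06 (95% interval -0.38 to 0.50) and at 10 nM -0.10 (-0.54 to 0.34), and no member's groups separated at either dose, against 8.15% of all probes at 100 nM and 6.68% at 10 nM.

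The mean of the fibroblast markers was lower at 1 µM than in control, with ranges that overlapped, and Lum had by far the largest difference. The mean of the 10 markers lay between 0.94 and 1.18 on the 1 µM arrays and between 1.15 and 1.46 on the control arrays, and 7 of the 10 were below control at 1 µM. None was called, and Lum, which encodes the matrix proteoglycan lumican, differed by -1.26 (SE 0.47), Col3a1 by -0.45 (SE 0.18) and Dcn by -0.38 (SE 0.18). Vim at 0.15, S100a4 at 0.09 and Fn1 at 0.075 were above control. The median difference of the 10 at 1 µM was -0.16, beside -0.02 over all genes. Lum was also below control at the other doses, differing by -1.07 at 100 nM and -0.98 at 10 nM. The group means of the 10 markers were 1.28 in control, 1.21 at 10 nM, 1.17 at 100 nM and 1.03 at 1 µM. The mean of the 7 leukocyte markers lay between -1.09 and -0.42 at 1 µM and between -1.65 and -0.72 in control, and that of the 9 pericyte and smooth muscle markers between -0.08 and 0.15 at 1 µM and between -0.29 and 0.02 in control. Their part in the Pdgfrb values was not tested, and in bulk RNA fewer cells of a type and less RNA per cell cannot be told apart.

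The other receptor gene, Pdgfra, differed by -0.35 from control at 1 µM (SE 0.26, 95% interval -0.91 to 0.21), by -0.17 at 100 nM and by -0.35 at 10 nM. These values rest on control replicate 1: without it the difference was -0.09 at 1 µM, 0.10 at 100 nM and -0.09 at 10 nM. The other end of the range at 1 µM was -0.55, without 1 µM replicate 2. Of the ligand probes, Pdgfb 32370 had the largest difference at 1 µM, 0.67 (SE 0.38, 95% interval -0.17 to 1.51). It became 0.16 without control replicate 1 and 0.95 without control replicate 3. The second Pdgfb probe differed by -0.04 (95% interval -0.50 to 0.42). The Pdgfb difference at 1 µM was thus seen with a single probe and resting on a single array.

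Pdgfa differed from control at 1 µM by 0.25 (SE 0.33) with probe 20156 and by 0.14 (SE 0.23) with probe 35802. Without 1 µM replicate 1 these were 0.59 and 0.00, and without control replicate 2 the first was -0.08. Pdgfc differed by -0.13 (SE 0.21) with probe 1657 and by -0.44 (SE 0.38) with probe 8767, and Pdgfd by -0.20 (SE 0.36). Without control replicate 1 the Pdgfc values were 0.06 and -0.25, and without 1 µM replicate 2 the Pdgfd value was -0.01. At 100 nM the 7 ligand probes differed from control by -0.47 to 0.32 and at 10 nM by -0.29 to 0.33. The lowest of these, Pdgfc probe 8767 at 100 nM, became 0.08 without 100 nM replicate 2. None of these differences passed the test against the spread between arrays.

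How large a difference the arrays leave room for is given by the intervals. At 1 µM the 95% interval lay within a doubling in either direction for 6 of 9 member probes, at 100 nM for 7, at 10 nM for 6 and for the mean of the doses for 7. Over all probes the shares were 77.9%, 80.4%, 80.0% and 88.3%, in the same order. These counts do not set the members apart. The probes with wider intervals at 1 µM were Pdgfb 32370 (-0.17 to 1.51), Pdgfc 8767 (-1.27 to 0.38) and Pdgfd (-1.001 to 0.596). The median difference of the 9 probes was -0.13 at 1 µM, 0.06 at 100 nM and -0.05 at 10 nM, beside -0.01, 0.02 and 0.00 over all probes. The doses share their control arrays, so these medians are not independent.

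The precision differed among the probes. The residual SD within groups was 0.23 for Pdgfrb, 0.24 for Pdgfc probe 1657, 0.25 for Pdgfb probe 38198 and 0.27 for Pdgfa probe 35802, all under the median of 0.29 over all tested probes. It was 0.33 for Pdgfra, 0.45 for Pdgfd and Pdgfa probe 20156, 0.53 for Pdgfc probe 8767 and 0.54 for Pdgfb probe 32370. The last had a larger SD than 88.4% of tested probes. In each of the 3 genes with a pair of tested probes, 1 probe was below the median SD and the other above it.

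Those pairs of probes gave no common profile across the arrays. Between the Pdgfa probes Pearson's r was -0.28 and Spearman's rho -0.24 over 12 arrays, between the Pdgfb probes 0.31 and 0.27, and between the Pdgfc probes 0.08 and 0.36. Permutation tests with 100000 resamples gave p of 0.385, 0.328 and 0.852 for r and 0.46, 0.404 and 0.257 for rho. Adjusted over the 3 pairs, p was 0.577, 0.577 and 0.852 for r and 0.46 for each rho. The 2 arrays farthest from the median were then left out, judged by probes 20156, 32370 and 1657 alone. Without them r was 0.03 for Pdgfa, 0.12 for Pdgfb and -0.25 for Pdgfc. For Pdgfc this kept 100 nM replicate 2, where probe 8767 had its lowest value. Sets of 4 arrays with a shared replicate number are too few for an r within them. The tested probes of each of these 3 genes thus shared their side of the reference in the mean. No correlation of their variation from array to array passed the test.

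The genes whose profile over the 12 arrays was nearest to each member are given as a description, by the root mean square difference of the profiles less their own means, among 19052 probes. Nearest to Pdgfrb were Tmem98 at 0.12, the kinase gene Haspin at 0.13 and the growth factor gene Fgf5 at 0.13, where Pdgfrb itself varied by 0.26 about its mean. Nearest to Pdgfc probe 1657 were Pcyox1 at 0.09, the mesenchymal transcription factor gene Twist1 at 0.10 and Atp6v1f at 0.10, with a variation of 0.23 for Pdgfc. Nearest to Pdgfa probe 20156 were Gpn3 at 0.14, B2m at 0.14 and Cfl2 at 0.15, with a variation of 0.38 for Pdgfa. Pdgfra, which varied by 0.31, had Mrpl58 at 0.15, Sdhaf4 at 0.16 and Tulp1 at 0.17, and Pdgfb probe 32370, which varied by 0.50, had Smco2 at 0.25, Napsa at 0.25 and Otos at 0.26. The profiles share arrays, a common reference and any array effect, and Pdgfd was not measured on all 12 arrays.

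The rest of the pathway was read from 6 lists, with the mean of a gene's probes as its value; listed genes with no tested probe were not analysed here. No gene of any list was called at any dose, where 0% of the 14524 genes were called. Against the reference RNA, where 38.2% of all genes were called higher and 34.5% lower, the counts given for the lists are descriptions and set none of them apart. Each list held genes called on either side, except the related receptor kinases, of which 1 was called higher and none lower. The medians of the lists against the reference lay between -0.11 and 0.08, beside 0.03 over all genes.

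Of the 4 tested VEGF family ligands, relatives of PDGF by their cystine knot, 1 was called above the reference and 1 below. Vegfd, a lymphatic growth factor, was at 1.88 (SE 0.12) and Vegfa, the main angiogenic factor, at -1.78 (SE 0.11), while Vegfc was at -0.01 and Pgf at 0.13. At 1 µM Vegfa differed from control by 0.58 (SE 0.30), Vegfc by -0.34 (SE 0.21) and Vegfd by -0.51 (SE 0.33), with adjusted p of 0.998 each in limma. At 10 nM Vegfa differed by 0.705, Vegfc by 0.48 and Vegfd by -0.10. An unadjusted p under 0.05 in limma was reached by 2 of the 4 genes at 10 nM and by 0 at 1 µM. Among all genes 2.50% and 4.37% reached it, and 4 genes are too few to set beside those shares. Of 3 tested receptor kinases related to the PDGF receptors, Flt4, the receptor of VEGF-C and VEGF-D, was called above the reference at 0.65 (SE 0.05), and Kit at -0.05 and Flt1 at -0.03 were not called. Kit differed from control by -0.58 at 1 µM with an SE of 0.61, the widest of these 3.

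Of 11 genes that process or bind the ligands or act beside the receptors, 5 were called above the reference and 3 below. Furin, a protease that cuts the A and B chains inside the cell, was at 0.82 (SE 0.09), and the co-receptor gene Nrp1 was at 0.80 (SE 0.07). Plau, which encodes urokinase, a protease known to activate PDGF-D, was at -0.99 (SE 0.11). Nrp1 had the smallest unadjusted p of this list at 1 µM and averaged 0.66 ± 0.26 at 1 µM and 1.01 ± 0.17 in control (SD, n = 3 each), a difference of -0.35 (SE 0.19). Pcsk6, a further convertase, differed by 0.30 (SE 0.32) and the proteoglycan gene Cspg4 by -0.12 (SE 0.16). Lrp1, a co-receptor of PDGF receptor beta named for its 94 probes after its values were seen, was at -0.05 (SE 0.07) against the reference and differed by 0.08 (SE 0.18) at 1 µM.

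Among 28 adaptors, enzymes and kinases downstream of the receptors, 12 were called above the reference and 10 below. The kinase gene Akt1 was at 1.32 (SE 0.06), the transcription factor gene Stat3 at 1.10 (SE 0.07) and Sos1, a Ras exchange factor, at -0.95 (SE 0.07). At 1 µM Stat5a differed from control by -0.28 (SE 0.19), the adaptor gene Gab1 by -0.26 (SE 0.19) and Pik3r1, the regulatory subunit of PI 3-kinase, by 0.30 (SE 0.23). The median of the 28 at 1 µM was -0.07, beside -0.02 over all genes.

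Of 7 genes for receptor turnover and dephosphorylation, 2 were called above the reference and 3 below. Ptpn12, a phosphatase that acts on PDGF receptor beta, was at 0.59 (SE 0.07), Ptpn2 at -1.06 (SE 0.20) and Ptprj at -0.51 (SE 0.09). All 7 were below control at 1 µM, the nearest being Ptprj at -0.008 (SE 0.255), and none was called. The median of the 7 at 1 µM was -0.13, beside -0.02 over all genes. At 100 nM and at 10 nM 4 of the 7 were below control. At 1 µM Ptpn1 differed by -0.27 (SE 0.17), Ptprk by -0.21 (SE 0.16) and the ubiquitin ligase gene Cbl by -0.13 (SE 0.14).

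Of 19 genes known to be induced by PDGF in fibroblasts, 8 were called above the reference and 9 below. The immediate early genes Fos at -2.63 (SE 0.22) and Ier2 at -2.45 (SE 0.23) and the phosphatase gene Dusp1 at -1.65 (SE 0.12) had the largest ratios in size, all below the reference. At 1 µM the median difference of the list was 0.13, beside -0.02 over all genes, and 5 of 19 were below control. At 100 nM the median was -0.03, beside 0.02 over all genes, with 11 of 19 below control. At 10 nM it was 0.03, beside -0.01, with 9 of 19 below. Ptgs2, the inducible cyclooxygenase, averaged 0.12 ± 0.30 at 1 µM and -0.33 ± 0.29 in control (SD, n = 3 each), a difference of 0.45 (SE 0.20) with an unadjusted p of 0.0481 and an adjusted p of 0.998 in limma. Dusp1 differed by 0.64 (SE 0.34) and Dusp6, an ERK phosphatase, by 0.24 (SE 0.14). The mean of the list over the arrays ran between -0.28 and -0.05 at 1 µM and between -0.45 and -0.19 in control, and these ranges overlapped.

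**Figure D4:**
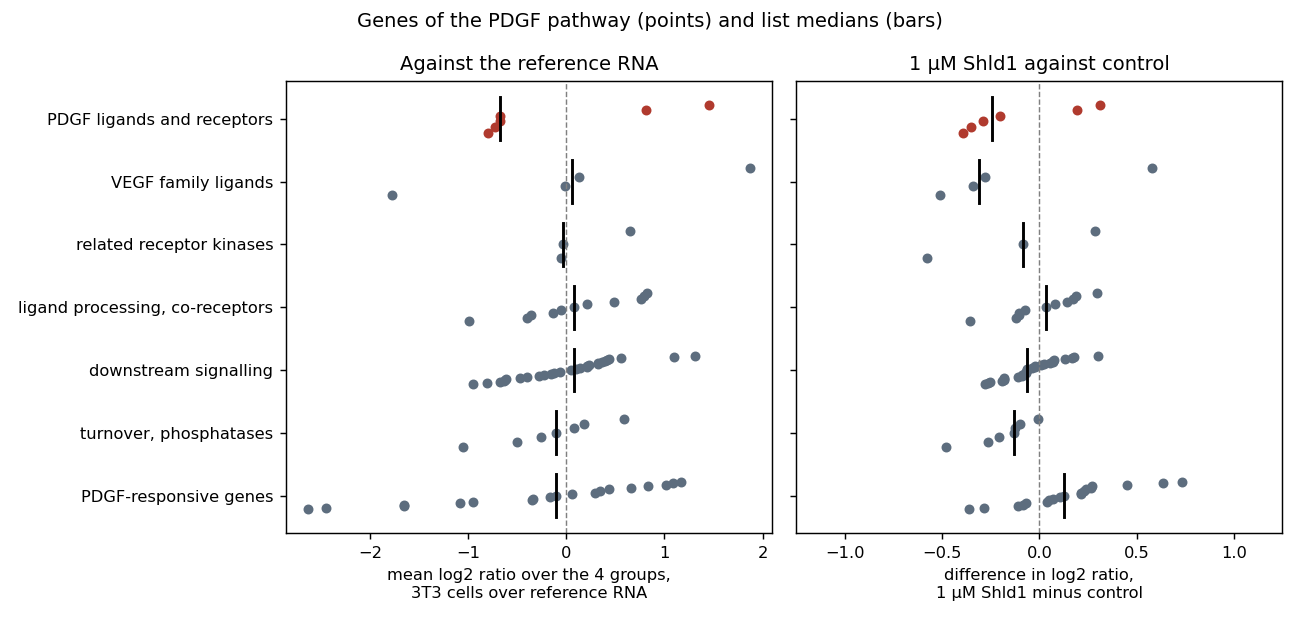
Mean log2 ratio of 3T3 cells over reference RNA (left panel) and difference in log2 ratio between 1 µM Shld1 and control (right panel) for genes of the PDGF pathway, 1 point a gene, grouped in rows by list with the list median as a bar. The PDGF genes (red) split into 2 above and 4 below the reference, and the right panel holds no gene called against control.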

How the data were processed

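Labelled RNA of 12 mouse 3T3 samples and a common reference RNA was hybridised on 2-colour arrays, read on an Axon scanner per the labels. The deposited table holds 1 log2 ratio per probe and array, with the base assumed; how the authors normalised and filtered the spots is not stated in the labels. Scanner intensities were not used, so signal over background is unknown. The number of arrays limits the precision.

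Probes were named from the platform annotation: 26173 had 1 symbol, 28 several and 12583 none. Each array was centred on its median (medians as deposited, -0.20 to -0.10). Probes with values on 2 or more of the 3 arrays in each group were fitted in limma 3.58.1 (R 4.3.3) over all arrays with group as the only term, with Benjamini-Hochberg adjustment over 30357 probes or 14524 genes at 0.05; 8427 probes were left out. A gene's value is the mean of its tested probes. The fit was tested on simulated data.

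The members, lists and markers were chosen with earlier results of these data known. Named are every member probe and, from each list, up to 3 genes by smallest unadjusted p for 1 µM and up to 3 by largest ratio to the reference; Lrp1 and probe 27598 were chosen with their values in view. Alternatives were no centring, scaling, quantile normalization, other filters, replicate blocks, robust variance, array weights, genes as the unit, 2 groups alone and leaving out each of the 12 arrays. Correlations used scipy 1.17.1, figures matplotlib 3.10.9 in Python 3.11.15.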

Additional observations from a re-analysis of the deposited data

How the results depend on the processing

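No member probe was called at any dose under any alternative that gave it a value, with adjusted p between 0.792 and 1.00 in limma, and each kept its call and direction against the reference over the 4 groups in those, with adjusted p up to 0.0211. Pdgfd was not tested with the filter on all 12 arrays or without control replicate 1 or 3, since its probe then failed the filter. The count of probes called at 1 µM, 1 of 30357, became 0 with the replicate number as a fixed term (replicate block), with genes as the unit and with the 2 groups alone, and 0 to 2 when an array was left out. The F test's count, also 1, became 0 with the fixed replicate block, array weights and genes as the unit, and 0 to 1 without an array. With genes as the unit, which tests fewer features, the calls against the reference numbered 6564 in control and 10569 over the 4 groups, against 13154 and 21637 probes. The replicate numbers were not taken to pair the arrays, since same-number deviations correlated by over 0.1 in only 9 of 18 pairs (-0.104 to 0.253). Their median was 0.095, against -0.058 for different numbers, and 8 of 12 arrays correlated best with their own number, a hint of pairing in the data. Deviations from a group's mean cancel out within the group, so these medians are not independent. The array numbers in the labels also ran consecutively within each replicate number, each run holding all 4 groups. What such a run marks, a batch or paired cultures, is not stated in the labels. The fixed replicate block gave Pdgfrb the same -0.39 at 1 µM, with an adjusted p of 0.934, and the random block gave 0.999.

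Differences from control, none of them called, changed sign as follows, and the cause was not tested. With genes as the unit, Pdgfb probe 38198 was at 0.31 at 1 µM and 0.15 at 100 nM, Pdgfc probe 1657 at -0.15 at 100 nM and Pdgfa probe 35802 at 0.027 at 10 nM, since the value is then the mean of both probes. Pdgfb probe 38198 was at 0.019 at 100 nM and Pdgfc probe 1657 at 0.008 for the mean of the doses with quantile normalization. With array weights Pdgfc probe 1657 was at 0.12 at 10 nM and 0.10 for the mean, and Pdgfa probe 35802 at -0.026 for the mean. The fixed replicate block put Pdgfd at -0.010 at 100 nM and -0.029 for the mean, and scaling put Pdgfrb at -0.020 at 100 nM. Without single arrays the ranges that crossed 0 at 1 µM were -0.232 to 0.064 for Pdgfc 1657, -0.075 to 0.594 for Pdgfa 20156 and -0.196 to 0.184 for Pdgfb 38198. At 100 nM they were -0.809 to 0.078 for Pdgfc 8767, -0.123 to 0.307 for Pdgfd, -0.065 to 0.192 for Pdgfrb, -0.157 to 0.387 for Pdgfa 20156, -0.052 to 0.128 for Pdgfa 35802, -0.352 to 0.098 for Pdgfra, -0.192 to 0.596 for Pdgfb 32370 and -0.179 to 0.201 for Pdgfb 38198. At 10 nM they were -0.201 to 0.151 for Pdgfc 1657, -0.202 to 0.342 for Pdgfa 20156, -0.191 to 0.133 for Pdgfa 35802 and -0.271 to 0.519 for Pdgfb 32370. For the mean of the doses they were -0.104 to 0.192 for Pdgfc 1657, -0.046 to 0.140 for Pdgfd, -0.145 to 0.399 for Pdgfa 20156, -0.072 to 0.109 for Pdgfa 35802, -0.102 to 0.687 for Pdgfb 32370 and -0.066 to 0.313 for Pdgfb 38198.

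In control alone against the reference, 4 probes lost their call without a control array: Pdgfc 8767 (0.654 without replicate 1), Pdgfra (-0.321 without replicate 2), Pdgfb 32370 (-0.372 without replicate 1) and Pdgfa 35802 (-0.379 without replicate 1). Pdgfra also lost its call with the fixed replicate block (adjusted p 0.0574 in limma), Pdgfc 8767 without centring, at 0.693, and Pdgfb 32370 with array weights, at -0.664. Pdgfd gained one without centring, at -0.828, and without 10 nM replicate 1 or 1 µM replicate 1.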
